A study of Homo sapiens with 3 samples.

Results

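The EGFR family consists here of 10 genes, chosen by name: the 4 receptors EGFR, ERBB2, ERBB3 and ERBB4 and the 6 ligands EREG, AREG, TGFA, HBEGF, BTC and NRG1. Each was found once among the 50868 genes of the deposited count tables. The cells were NCI-H23, an established human lung tumor cell line, and the RNA was sequenced as mRNA libraries. The siUSP16 group was transfected with siRNA against USP16, the gene of a histone H2A deubiquitinase, and comprised 2 libraries, called siUSP16 library 1 and siUSP16 library 2 after their labels. The control group was transfected with control siRNA and comprised 1 library. The design asks how the level of each transcript differs between cells with and without USP16 knockdown. The labels do not say whether the siUSP16 libraries are different siRNAs or separate cultures of 1 siRNA, and the spread behind each p-value may therefore be technical. They give no time after transfection and no siRNA sequence.

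The EGFR family, also called the ErbB or HER family, is a set of receptor tyrosine kinases at the cell surface. Binding of a ligand leads a receptor to pair with itself or with another family member, after which the receptor tails are phosphorylated and recruit adaptors that feed the RAS-ERK and PI3K-AKT pathways. The ligands are made as membrane-anchored precursors and are cut loose by metalloproteases. In lung adenocarcinoma the family is known for EGFR mutations that drive tumor growth and for EGFR kinase inhibitors.

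The libraries held 13956382 counts in siUSP16 library 1, 15071179 in siUSP16 library 2 and 14007161 in the control. The targeted gene USP16 had 109 and 245 counts in siUSP16 libraries 1 and 2 and 632 in the control, so both siUSP16 libraries were lower, library 1 more so. siUSP16 library 2 stood furthest apart: 7.77% of the 17287 genes tested differed at least 2-fold between it and both other libraries, against 4.06% for siUSP16 library 1 and 5.43% for the control. All 5 epithelial markers measured were detected in each library, from KRT18, with 1986 and 3364 counts in siUSP16 libraries 1 and 2 and 2903 in the control, and KRT8, with 1118 and 1880 against 2214, down to KRT19, with 55 and 52 against 62. CDH1 had 39 and 93 counts in siUSP16 libraries 1 and 2 and 142 in the control, and EPCAM had 161 and 232 against 38. Of the 5, EPCAM was higher and the other 4 were lower in both siUSP16 libraries. The summed level of the 5 was 237 and 361 CPM (counts scaled to library size) in siUSP16 libraries 1 and 2, against 403 CPM in the control. Markers of the lung lineage were near or at 0: SFTPB and SFTPC had 0 counts in each library and NKX2-1 had between 4 and 10. The leukocyte marker PTPRC had at most 1 count in any library, and HBA1 and HBB had 0.

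EREG and AREG, encoding the EGFR ligands epiregulin and amphiregulin, were higher in both siUSP16 libraries than in the control, by 3.22-fold and 5.44-fold for EREG and by 2.84-fold and 2.90-fold for AREG. HBEGF, encoding heparin-binding EGF-like growth factor, was lower in both. EGFR itself was lower, mainly in siUSP16 library 2, and ERBB2 was close to the control in both. In these bulk libraries fewer cells that express a gene and less of its RNA per cell cannot be told apart. None of these differences passed the test across all genes. The targeted gene USP16 did not pass it either, at a mean log2 change of -2.09. By edgeR's quasi-likelihood test, 0 of the 8 members that could be tested had an adjusted p under 0.05, against 0.0174% of all genes tested, and by DESeq2 0 did, against 0.081%. An unadjusted edgeR p under 0.05 was found for 2 of the 8, EREG and AREG, where 4.88% of all genes tested had one. The other 2 members, ERBB4 and BTC, had too few counts for the filter on low counts. TGFA passed that filter through siUSP16 library 1 alone, whereas the other 7 passed it in every library.

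**Figure D1:**
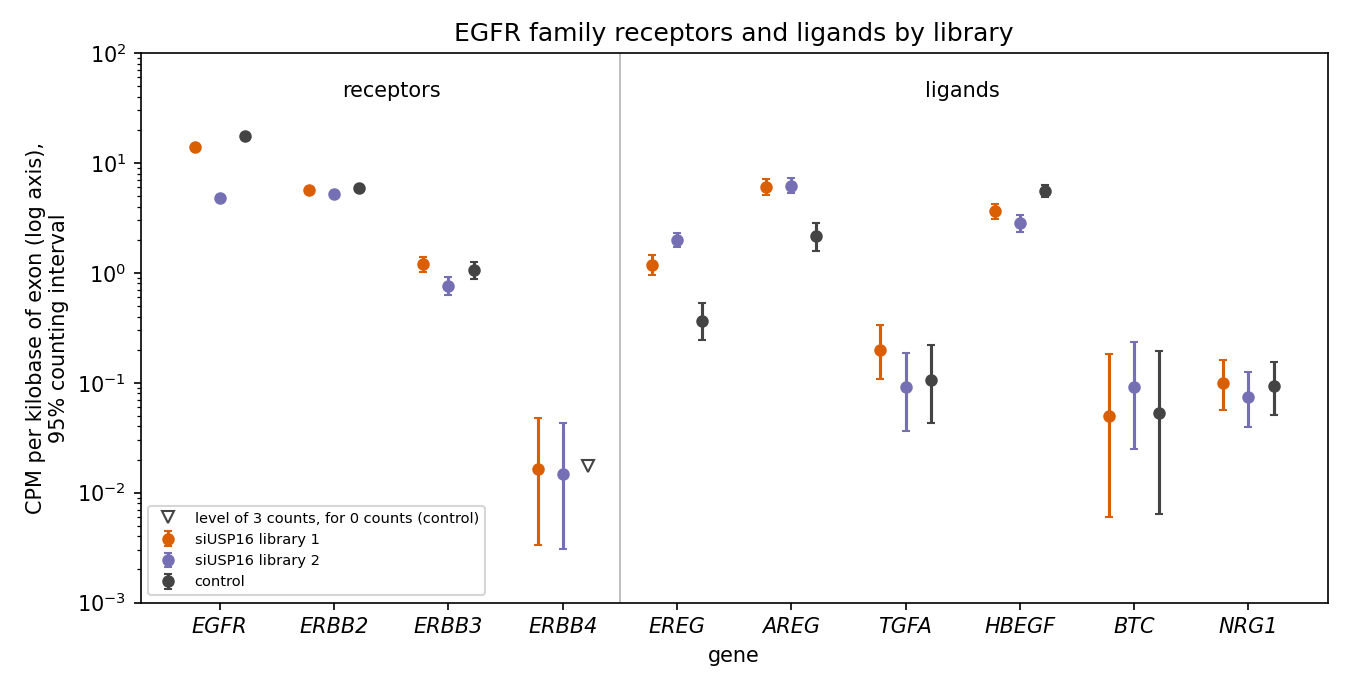
Level of each receptor and ligand gene in CPM per kilobase of exon, on a log axis, in siUSP16 library 1, siUSP16 library 2 and the control. Bars are 95% Poisson intervals for counting error, and the open triangle is the level that 3 counts would give, drawn for the 0 counts of ERBB4 in the control. EREG and AREG lie above the control in both siUSP16 libraries, and HBEGF and EGFR lie below it.

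EREG and AREG both lie on the plus strand of chromosome 4, EREG at positions 74365143 to 74388751 and AREG at 74445134 to 74455009 of hg38, with 56.4 kb between them. An antisense gene annotated in that gap, AC021180.1, had 0 counts in each library. No annotated gene overlaps EREG or AREG. Because these are the members that differed most and in the same direction, the 250 bases before their RefSeq start sites are shown for comparison (GRCh38.p14, plus strand, chr4:74364895-74365144 for EREG and chr4:74444886-74445135 for AREG). Capitals mark the TATA box motif TATAAA and the cyclic AMP response element motif TGACGTCA.
EREG: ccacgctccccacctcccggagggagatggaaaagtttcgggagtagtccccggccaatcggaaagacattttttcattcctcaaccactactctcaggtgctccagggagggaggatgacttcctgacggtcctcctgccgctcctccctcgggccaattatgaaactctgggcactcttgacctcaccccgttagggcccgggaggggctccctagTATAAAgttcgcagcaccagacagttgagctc
AREG: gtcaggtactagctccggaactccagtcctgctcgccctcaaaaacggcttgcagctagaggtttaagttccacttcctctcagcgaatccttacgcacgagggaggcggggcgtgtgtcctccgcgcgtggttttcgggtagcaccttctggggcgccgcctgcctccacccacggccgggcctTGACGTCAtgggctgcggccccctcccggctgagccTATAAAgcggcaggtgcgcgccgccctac
Both windows hold TATAAA on the gene's strand, starting 32 bases before the start site in EREG and 29 bases before it in AREG. On the gene's strand TATAAA occurs in 6.8% of 35116 RefSeq promoter windows of the same 250 bases. Searched on both strands, as the motifs below were, it occurs in 10.7%. The AREG window also holds TGACGTCA, 65 bases before the start, a motif found in 1.65% of the windows and not found in that of EREG. The AP-1 motif TGANTCA, found in 6.57% of windows, occurs in neither, and the GC box GGGCGG, found in 42.6%, occurs once in AREG, on the reverse strand, and not in EREG. No overlap between matches of different motifs occurs in these windows. RefSeq windows were given for 8 of the 10 members. TATAAA was not found in the windows of ERBB2, ERBB4, TGFA, HBEGF and BTC, nor in the first of the 2 EGFR windows, and it occurs 2 times in the second, internal one. A match describes the letters of a window and is not a measured binding site.

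EREG, which binds EGFR and ERBB4, had 96 counts in siUSP16 library 1, 178 in siUSP16 library 2 and 28 in the control. Scaled to library size, the level was 6.77 CPM (95% Poisson interval 5.49 to 8.27) in siUSP16 library 1 and 11.4 CPM (9.82 to 13.3) in siUSP16 library 2, against 2.10 CPM (1.40 to 3.04) in the control. Both siUSP16 values lie above the control and their counting intervals do not overlap its interval. The fold of siUSP16 over control was 3.22 (exact binomial 95% interval 2.10 to 5.10) in library 1 and 5.44 (3.64 to 8.42) in library 2. These and all other intervals cover counting error only. On the log2 scale the changes were 1.62 and 2.37, with a mean of 2.00 ± 0.53 (SD, n = 2). This SD leaves out the variation of the single control, which both changes share. The edgeR p was 0.00775 before adjustment and 0.827 after Benjamini-Hochberg adjustment over all genes. DESeq2 gave a log2 fold change of 2.12 with a standard error of 0.77 (adjusted p = 0.769).

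AREG, which binds EGFR alone, had 142 counts in siUSP16 library 1, 159 in siUSP16 library 2 and 47 in the control. The level was 10.02 CPM (8.44 to 11.8) in siUSP16 library 1 and 10.2 CPM (8.70 to 11.9) in siUSP16 library 2, against 3.53 CPM (2.59 to 4.69) in the control. The siUSP16 libraries were within counting error of each other, with a ratio of library 2 to library 1 of 1.02 (0.809 to 1.29), and both lay above the control. The log2 changes were 1.469 and 1.498, with a mean of 1.48 ± 0.02 (SD, n = 2). The edgeR p was 0.0238 before and 0.999 after adjustment over all genes.

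EREG and AREG were the 2 of 10 members at least 2-fold higher in both siUSP16 libraries, a size reached by 3.75% of all genes tested and by 3.55% of those with a mean of 50 to 200 counts, the range that holds both. Changes upward in both libraries as large as the smaller of its own changes were found for 1.05% of genes tested in the case of EREG and for 1.46% in that of AREG. Since both libraries are set against the same control, a low control value alone raises both changes, and no second control library is there to measure its spread. The epithelial marker EPCAM was also higher in both, with log2 changes of 1.94 and 2.33, while CDH1 had -1.90 and -0.82. For EPCAM the edgeR p was 0.00337 before and 0.757 after adjustment over all genes. The part of these markers in the EREG and AREG values was not tested.

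**Figure D2:**
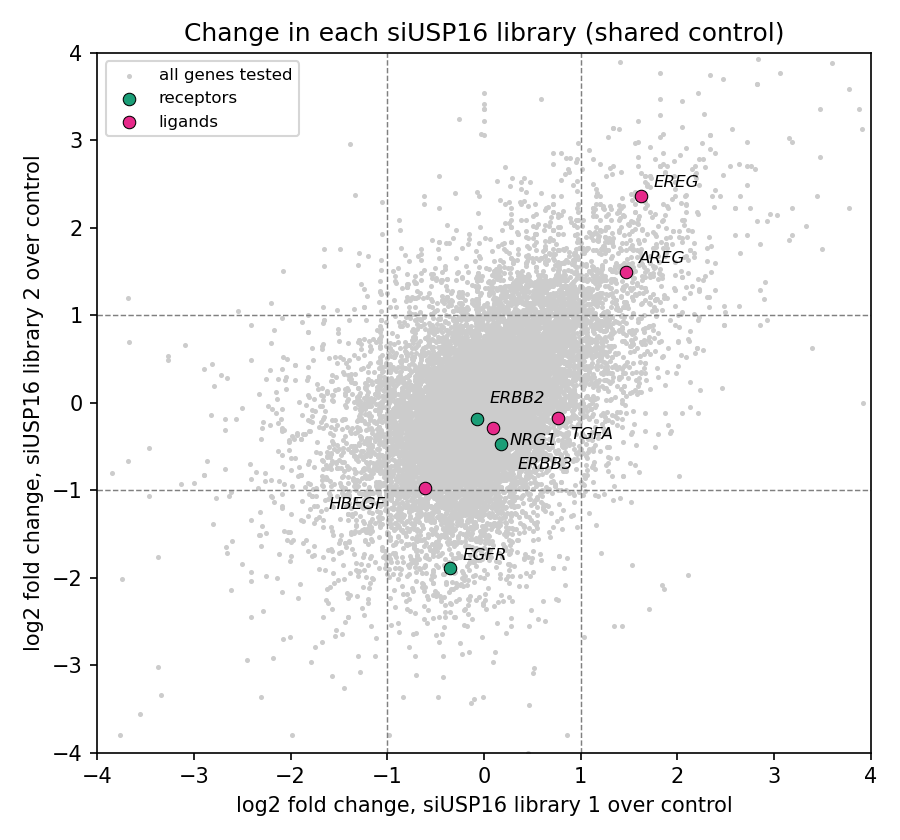
Log2 fold change over the control in siUSP16 library 1 (horizontal axis) and siUSP16 library 2 (vertical axis) for all 17287 genes tested (grey), with the 3 receptors and 5 ligands that passed the filter in color. Dashed lines mark 2-fold, 32 genes lie outside the axes, and both axes share the control, which by itself stretches the cloud along its diagonal. EREG and AREG lie beyond 2-fold on both axes, and EGFR lies beyond it on the vertical axis only.

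Around the EREG and AREG pair, 6 other genes passed the filter within 500000 bases of the stretch that runs from EREG to BTC. None of the 6 was 2-fold higher in both siUSP16 libraries, where 3.75% of all genes tested were. The 2 chemokine genes CXCL2 and CXCL5 were 2-fold lower in both, where 1.68% of all genes tested were. CXCL5 had 15 and 14 counts in siUSP16 libraries 1 and 2 and 40 in the control, and CXCL2 had 4 and 5 against 13 in the control. CXCL2 passed the filter through the control alone, so being lower in the siUSP16 libraries is in part tied to the filter. The chemokine gene CXCL1 had 30 and 225 counts in siUSP16 libraries 1 and 2 and 35 in the control, so it was high in library 2 alone. The nearest of them, MTHFD2L, which encodes a mitochondrial folate enzyme, had 150 and 205 counts in siUSP16 libraries 1 and 2 and 96 in the control, with log2 changes of 0.54 and 0.86. The remaining ones were CXCL3, with log2 changes of -0.07 and 0.64, and PARM1, with -2.13 and -0.55. EPGN, a further EGFR ligand gene directly before EREG, had 7 and 6 counts against 6 in the control and did not pass the filter.

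**Figure D3:**
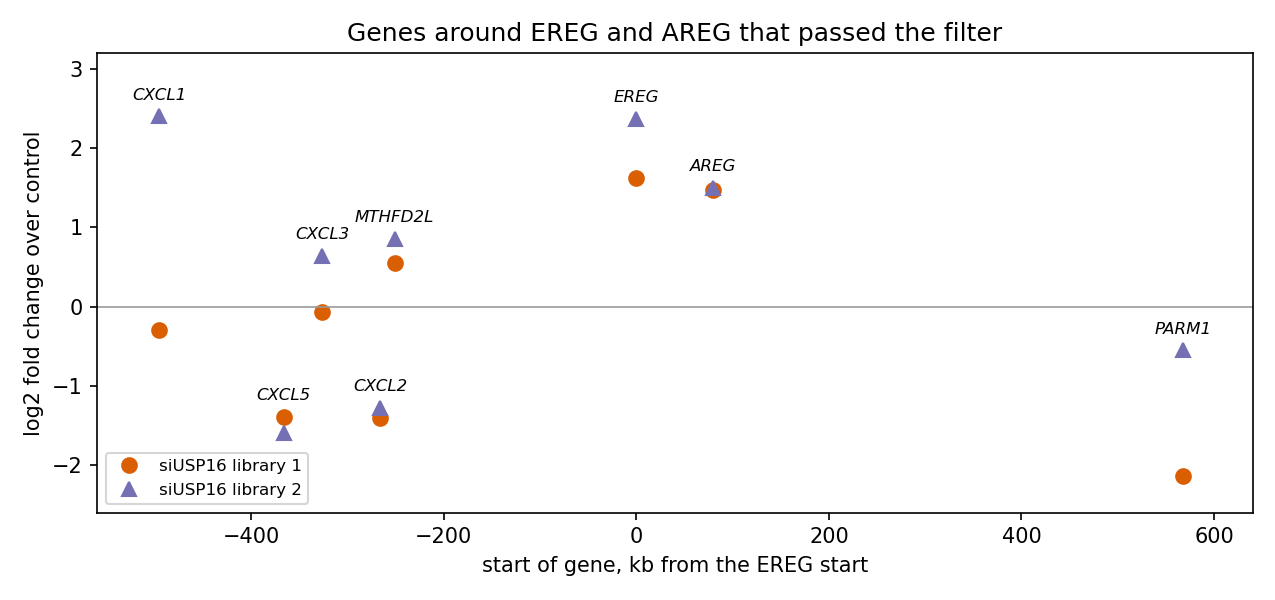
Log2 fold change over the control (vertical axis) in siUSP16 library 1 (circles) and siUSP16 library 2 (triangles) of the 8 genes around EREG and AREG that passed the filter, by the distance of their start from that of EREG in kb. Only EREG and AREG are above 1 in both libraries, while CXCL2 and CXCL5 are below -1 in both.

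HBEGF, the ligand gene with the highest level in the control, encodes a ligand of EGFR and ERBB4 and lies on the minus strand of chromosome 5 at 140332843 to 140346631. It had 155 counts in siUSP16 library 1, 132 in siUSP16 library 2 and 224 in the control. The level was 10.9 CPM (9.28 to 12.8) and 8.49 CPM (7.10 to 10.1) in siUSP16 libraries 1 and 2, against 16.8 CPM (14.7 to 19.2) in the control. Both siUSP16 values were below the control interval, at 0.650 (0.526 to 0.801) and 0.504 (0.404 to 0.628) of the control. The mean log2 change was -0.80 ± 0.25 (SD, n = 2), with an edgeR p of 0.142 before and 0.999 after adjustment over all genes. Downward changes in both libraries at least as large as the smaller of its own, -0.62, were found for 5.62% of genes tested. By the pair of log2 changes, -0.62 and -0.98 for HBEGF, the nearest genes were SLC12A2 (-0.60 and -0.98), RNF19B (-0.62 and -0.99) and UNC5B (-0.59 and -0.97). Nearness was measured as the Euclidean distance between pairs of changes, and 3 libraries are too few for it to say more.

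The other 3 ligand genes were close to the limit of detection. NRG1, the neuregulin gene whose products bind ERBB3 and ERBB4, had 16 and 13 counts in siUSP16 libraries 1 and 2 and 14 in the control. TGFA, encoding transforming growth factor alpha, a ligand of EGFR, had 14 and 7 counts in siUSP16 libraries 1 and 2 and 7 in the control. BTC, encoding betacellulin, which binds EGFR and ERBB4, had 2 and 4 counts against 2 in the control. For each of these the counting intervals of all libraries overlap, and a difference was not detectable at this depth. For NRG1 the fold over control was 1.07 (0.491 to 2.38) in library 1 and 0.795 (0.344 to 1.82) in library 2, and for TGFA it was 1.88 (0.710 to 5.50) and 0.856 (0.256 to 2.86).

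EGFR, on the plus strand of chromosome 7 at 55019021 to 55211628, was the receptor gene with the most counts. It had 2473 counts in siUSP16 library 1, 930 in siUSP16 library 2 and 2960 in the control. The level was 174 CPM (168 to 181) in siUSP16 library 1 and 59.8 CPM (56.0 to 63.8) in siUSP16 library 2, against 222 CPM (214 to 230) in the control. Both siUSP16 values lie below the control, but library 1 was at 0.785 (0.744 to 0.828) of it and library 2 at 0.269 (0.250 to 0.290). The log2 changes were -0.35 and -1.89, with a mean of -1.12 ± 1.09 (SD, n = 2), so the spread between the siUSP16 libraries was about as large as the mean change. The edgeR p was 0.106 before and 0.999 after adjustment over all genes.

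siUSP16 library 2 had 0.343 (0.317 to 0.370) of the EGFR level of library 1. Among the 5799 genes with a mean of 500 to 5000 counts, 1.48% were at least as much lower in library 2 than in library 1, and 2.35% were at least as far apart in either direction. Each is a single library, so this difference was not tested. USP16 itself was the other way round, lower in library 1 than in library 2. Nearest to EGFR in the pair of log2 changes, among the 11235 other genes that averaged 100 counts or more, were C17orf51 (-0.31 and -1.90), AXL (-0.31 and -1.94) and ZNF672 (-0.41 and -1.86). AXL encodes another receptor tyrosine kinase, and it had 1047 and 369 counts in siUSP16 libraries 1 and 2 and 1221 in the control. The mesenchymal marker VIM also differed in library 2 mainly, with 19284 and 7957 counts in siUSP16 libraries 1 and 2 and 20066 in the control. Of the other 2 mesenchymal markers measured, FN1 had 234 and 314 counts against 230 in the control, and CDH2 had 23 and 10 against 10. The part of these markers in the EGFR values was not tested.

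ERBB2, on chromosome 17 at 39687914 to 39730426, encodes the family member that has no ligand of its own and acts as a partner of the others. It had 825 and 835 counts in siUSP16 libraries 1 and 2 and 815 in the control. The level was 58.2 CPM (54.3 to 62.3) and 53.7 CPM (50.1 to 57.5) in siUSP16 libraries 1 and 2, against 61.2 CPM (57.1 to 65.6) in the control, and all 3 intervals touch or overlap. At 0.951 (0.862 to 1.05) and 0.877 (0.795 to 0.967) of the control, it was the member that moved least among those with over 100 counts in each library. The mean log2 change was -0.13 ± 0.08 (SD, n = 2; edgeR adjusted p = 0.999). The ends of ERBB2 overlap exons of PGAP3 and MIEN1 on the other strand, and whether counting used strand is not given. PGAP3 had 240 and 319 counts in siUSP16 libraries 1 and 2 and 144 in the control, and MIEN1 had 273 and 372 against 211. Nearest to ERBB2 in pattern were SALL4 (-0.07 and -0.19), EGFL7 (-0.08 and -0.18) and TMEM60 (-0.08 and -0.19).

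ERBB3, on chromosome 12 at 56076799 to 56103505, encodes a receptor with weak kinase activity that signals through its partners. It had 154 and 107 counts in siUSP16 libraries 1 and 2 and 128 in the control, or 10.9 and 6.88 CPM against 9.61 CPM. The siUSP16 libraries lie on either side of the control, at log2 changes of 0.17 and -0.47 (edgeR adjusted p = 0.999). ERBB4, on chromosome 2, encodes a neuregulin receptor and had 3 counts in each siUSP16 library and 0 in the control. A count of 0 allows up to 3 counts, or 0.225 CPM, in the control, and no difference in ERBB4 was detectable at this depth.

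Levels of different genes were compared per kilobase of annotated exon. In the control the order was EGFR (17.8 CPM per kilobase), ERBB2 (5.93), HBEGF (5.57), AREG (2.14), ERBB3 (1.06) and EREG (0.368), with TGFA, NRG1, BTC and ERBB4 at 0.106 or below. ERBB2 and HBEGF did not differ beyond their counting intervals there. In siUSP16 library 1 the order was EGFR (13.9), AREG (6.08), ERBB2 (5.64), HBEGF (3.62), ERBB3 (1.20) and EREG (1.18), and AREG and ERBB2 overlapped, as did ERBB3 and EREG. In siUSP16 library 2 AREG (6.20), ERBB2 (5.20) and EGFR (4.78) were the 3 highest, and each overlapped the next in this order. They were followed there by HBEGF (2.81), EREG (2.00) and ERBB3 (0.761). With the length of the longest transcript in place of all exons, ERBB2 comes before AREG in both siUSP16 libraries.

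The make-up of the receptor and ligand transcripts therefore differed between libraries. Per kilobase, EGFR took 67.0% and 44.4% of the summed level of the 4 receptors in siUSP16 libraries 1 and 2, against 71.7% in the control. ERBB2 took 27.1% and 48.4% in siUSP16 libraries 1 and 2, against 24.0% in the control. AREG and EREG together took 64.6% and 72.8% of the summed ligand level in siUSP16 libraries 1 and 2, against 30.1% in the control. As a share of ligand counts, without division by length, they held 56.0% (Wilson 95% interval 51.2 to 60.6) and 68.4% (64.1 to 72.3) in siUSP16 libraries 1 and 2, against 23.3% (19.0 to 28.2) in the control. HBEGF held 36.5% (32.0 to 41.1) and 26.8% (23.1 to 30.9) of ligand counts in siUSP16 libraries 1 and 2, against 69.6% (64.3 to 74.3) in the control. The summed ligand level was 11.2 and 11.3 CPM per kilobase in siUSP16 libraries 1 and 2, against 8.34 in the control. The summed receptor level was 20.8 and 10.8 CPM per kilobase in siUSP16 libraries 1 and 2, against 24.8 in the control. ERBB2 itself was at 5.64 and 5.20 in siUSP16 libraries 1 and 2, against 5.93 in the control, so its share was higher in library 2 while its level was not. The share of AREG and EREG was thus higher, and that of HBEGF lower, in both siUSP16 libraries than in the control. The shares of EGFR and ERBB2 differed mainly in library 2. Both ligand shares are parts of the same counts, so one tends to be lower where the other is higher. They restate the changes of AREG, EREG and HBEGF against the same single control and add no further support to them.

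**Figure D4:**
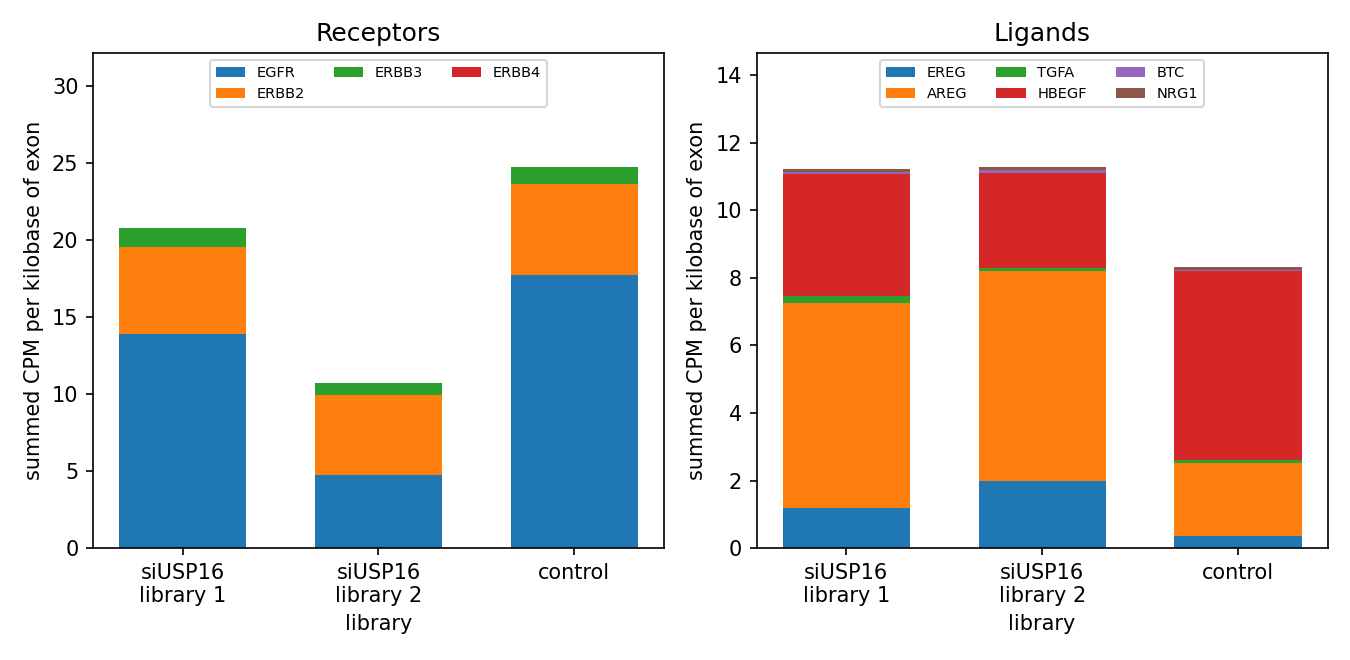
Summed level of the 4 receptor genes (left) and the 6 ligand genes (right) in CPM per kilobase of exon for siUSP16 library 1, siUSP16 library 2 and the control, each a single library without error bars. Most of the ligand level is AREG and EREG in both siUSP16 libraries and HBEGF in the control, and the EGFR part of the receptor level is smallest in siUSP16 library 2.

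The genes that act with the family were read from lists of known components. No member of any of the 6 lists passed the adjusted threshold in edgeR or in DESeq2. An unadjusted edgeR p under 0.05 was found for 1 of 22 receptor inhibitors and ubiquitin regulators, 2 of 22 adaptors and effectors, 1 of 24 genes of internalization and sorting and 5 of 24 other receptor tyrosine kinases, and for 0 of the remaining 2 lists, where 4.88% of all genes tested had one. Across all genes tested, 33.4% were higher and 33.5% lower in both siUSP16 libraries, with median log2 changes of 0.0020 and -0.0029.

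Among the other ligand genes, 2 of 5 could be tested. NRG2, a neuregulin gene, had 139 and 90 counts in siUSP16 libraries 1 and 2 and 196 in the control, at log2 changes of -0.58 and -1.33. NRG4 had 18 and 22 against 5, at log2 changes of 1.45 and 1.59. It was the 1 of these 2 that was 2-fold higher in both, where 3.75% of all genes tested were. In the control NRG4 was below the cut of the filter on low counts. It passed through the siUSP16 libraries alone, so being higher there is in part tied to the filter. EGF, which encodes epidermal growth factor, had 2 and 8 counts against 0 and did not pass the filter.

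Of the 11 tested genes of ligand release, 5 were higher and 4 lower in both siUSP16 libraries, with median log2 changes of 0.26 and -0.29. ADAM15, a membrane metalloprotease gene, had 1410 and 1380 counts in siUSP16 libraries 1 and 2 and 744 in the control. RHBDF1, an inactive rhomboid that helps the protease ADAM17 mature, had 326 and 319 against 534, and the proprotein convertase gene FURIN had 1146 and 1225 against 1869. In these 3 genes the siUSP16 libraries were close to each other and apart from the control, at log2 changes of 0.83 and 0.67, -0.80 and -0.96, and -0.80 and -0.83. NRDC, the most abundant gene of the list, encodes a metalloprotease that enhances shedding and was at 0.23 and 0.69, and the metalloprotease gene ADAM19 was at -0.14 and -1.42.

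Of the 22 receptor inhibitors and ubiquitin regulators, 5 were higher and 7 lower in both, with median log2 changes of -0.06 and 0.03. LRIG1, a membrane protein that promotes degradation of EGFR family receptors, had 256 and 254 counts in siUSP16 libraries 1 and 2 and 615 in the control. Its log2 changes were -1.35 and -1.49, and its edgeR p was 0.00552 before and 0.822 after adjustment over all genes. It was the 1 gene of the 22 that was 2-fold changed in the same direction in both libraries, where 5.43% of all genes tested were. In the lower direction alone, 1.68% of all genes tested were 2-fold changed in both. ERRFI1, an intracellular EGFR inhibitor and the most abundant of the list, had 6584 and 12114 counts against 10296. NEDD4, a ubiquitin ligase, was at 0.45 and 0.68, the ubiquitin ligase CBLB at 0.52 and 0.27, and the ubiquitin ligase STUB1 at -0.02 and -0.72.

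Of the 22 tested adaptors and effectors, 6 were higher and 7 lower in both, with median log2 changes of 0.05 and -0.21. SHC1, the most abundant of them and an adaptor that binds phosphorylated receptors, had 4303 and 5639 counts in siUSP16 libraries 1 and 2 and 7052 in the control. PTPN11, encoding the phosphatase SHP2 that carries signals to RAS, had 3994 and 3605 against 1970. PIK3R2, a regulatory subunit of PI3K, had 760 and 459 against 1166, with an edgeR p of 0.0355 before and 0.999 after adjustment. PLCG1, a phospholipase recruited by EGFR, was at 1.10 and 0.28, and GRB7, an adaptor of ERBB2, at 0.17 and 1.19. By size, 1 gene of the list was 2-fold higher in both, the adaptor gene GAB2, where 3.75% of all genes tested were. GAB2 had 42 and 55 counts in siUSP16 libraries 1 and 2 and 11 in the control.

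Of the 24 genes of receptor internalization and sorting, 3 were higher and 10 lower in both, with median log2 changes of -0.16 and -0.07. AP2M1, the cargo-binding subunit of the clathrin adaptor AP-2, had 3543 and 1952 counts in siUSP16 libraries 1 and 2 and 5654 in the control. Its edgeR p was 0.0197 before and 0.999 after adjustment over all genes. The AP-2 subunit genes AP2B1 and AP2S1 were at -0.88 and -0.60, and at -0.96 and -0.17. The clathrin light chain gene CLTB was at 1.27 and 0.38, and the clathrin heavy chain gene CLTC, the most abundant of the list, was at 0.10 and 0.28.

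Of the 24 tested receptor tyrosine kinases outside the family, 10 were lower and 4 higher in both, with median log2 changes of -0.20 and -0.53. By size, 2 were 2-fold lower in both, EPHA2 and MERTK, against 1.68% of all genes tested, and 2 were 2-fold higher in both, KIT and ALK, against 3.75%. KIT and ALK were named after their values were seen. KIT, the stem cell factor receptor gene, had 24 and 72 counts in siUSP16 libraries 1 and 2 and 8 in the control, and ALK had 18 and 28 against 6. Both were below the cut of the filter on low counts in the control. They passed it through the siUSP16 libraries alone, so being higher there is in part tied to the filter. EPHA2, an ephrin receptor gene, had 2294 and 2411 counts in siUSP16 libraries 1 and 2 and 4915 in the control. MERTK, of the same subfamily as AXL, had 264 and 319 against 559, and the insulin-like growth factor receptor gene IGF1R had 1824 and 3248 against 4573. For EPHA2 and MERTK the siUSP16 libraries lay close together more than 2-fold below the control, whereas EGFR and AXL were that far below it in library 2 only.

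**Figure D5:**
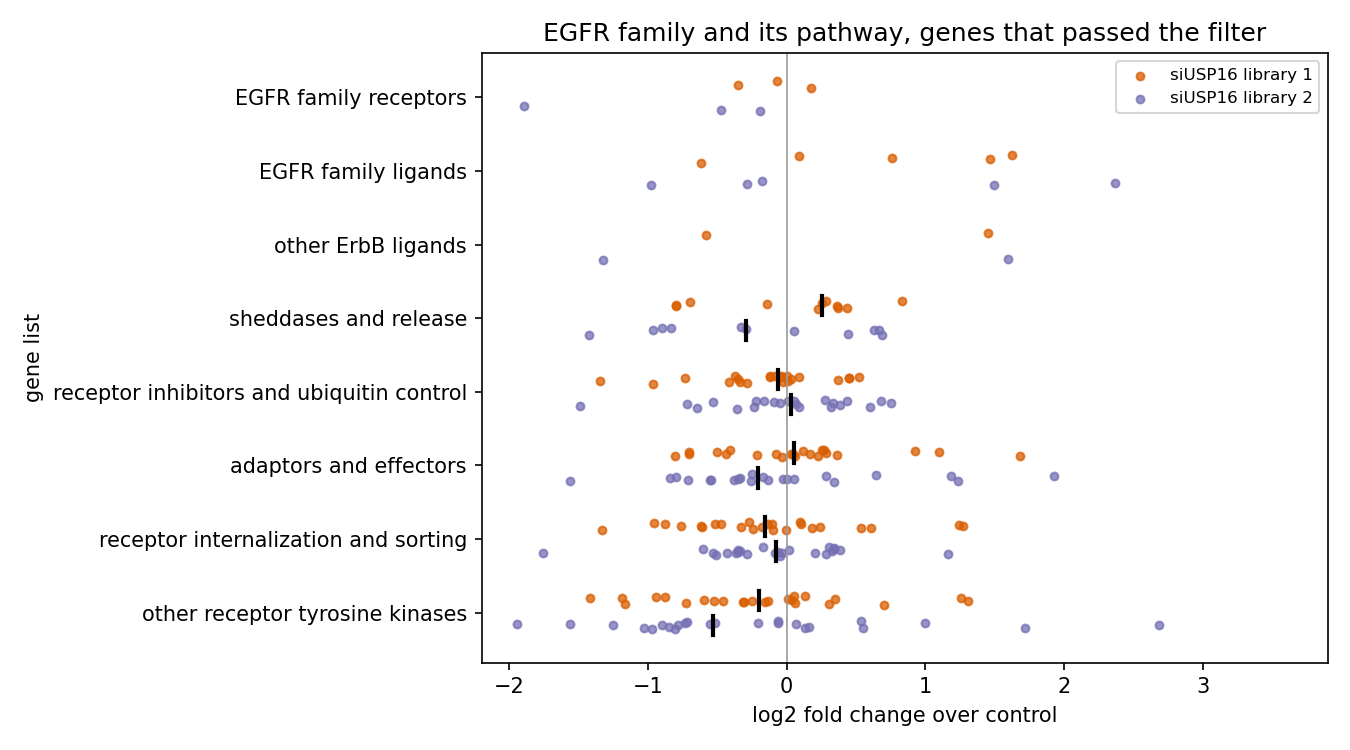
Log2 fold change over the control in siUSP16 library 1 and siUSP16 library 2 for each tested gene of the EGFR family and of 6 lists of genes that act with it, with 1 point per gene and library. Black bars are list medians and are drawn for the lists from sheddases and release downward, each spread over both sides of 0, the other receptor tyrosine kinases having medians of -0.20 and -0.53.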

How the data were processed

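Whole-number counts of reads per gene were deposited for 50868 genes in each of 3 libraries, with no normalization visible in the values. HISAT2 2.0.4, StringTie 1.3.0 and hg38 are named in the submitters' processing notes, with no role given. How reads were assigned to genes, with which annotation and whether by strand, is not given in the sources used here. The count column of siUSP16 library 2 carries another number in its header than its label, and the sample was used as labelled.

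Here, edgeR 4.0.16 in R 4.3.3 was used with filterByExpr (17287 genes kept), TMM scaling (factors 1.02, 1.03 and 0.952 for siUSP16 libraries 1 and 2 and the control) and the quasi-likelihood test, with Benjamini-Hochberg adjustment over all genes calling genes at 0.05. Since the control is 1 library, its variation was taken to be that of the siUSP16 libraries, which leaves 1 residual degree of freedom. Changes per library are log2 CPM differences with a prior count of 2. DESeq2 1.42.0 was an alternative, with others given in the closing section. The scripts were tested on simulated data. Positions and exon lengths came from GENCODE release 29, which is on hg38, and promoter windows from RefSeq (GRCh38.p14).

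All 10 members are named. For the lists, the named genes are up to 4 with the largest mean change in the same direction in both libraries and a mean of at least 100 counts, and the most abundant gene; genes most similar in pattern were sought for the 3 members with the highest mean count. NRG4, EGF, EPGN, the genes around EREG and the marker genes were named beside that rule, as were KIT, ALK and GAB2, after their values were seen. The members and lists were chosen with earlier results of these data known.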

Additional observations from a re-analysis of the deposited data

How the results depend on the processing

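Over all genes, 3 passed the edgeR threshold, against 70 with no filter on low counts, 1 with a minimum mean of 100 counts, 3 with median-ratio size factors and 14 with DESeq2. No member passed in any of these, and each tested member kept the sign of its fitted change. The targeted gene USP16 passed with no filter alone. The adjusted p of EREG ranged from 0.306 with no filter to 1.00 with a minimum mean of 100 counts, and that of AREG from 0.749 to 1.00. The number of members at least 2-fold changed in both siUSP16 libraries was 2, and 2 with a prior count of 10 or median-ratio size factors. It was 0 on the log2(CPM + 5) scale, which shrinks low levels and on which EREG was at 0.73 and 1.21 and AREG at 0.82 and 0.84. It was 3 with no filter, which adds ERBB4 at 3, 3 and 0 counts, and 3 at 1.5-fold, which adds HBEGF. Leaving out either siUSP16 library gave between 2 and 3 members, with EGFR added when library 1 was left out, and left no residual degree of freedom for a test. Exon length by the longest transcript moved 8 of 30 ranks of level. No paired analysis was possible because the control is a single library, so the groups share fewer than 2 replicate numbers. Depth limits ERBB4, BTC, TGFA and NRG1, which had 16 counts or fewer in each library.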
